A study of Mus musculus with 6 samples.

Results

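The ubiquitin system tags proteins for breakdown or for a change of place or activity. Here 149 of its genes are described in kidneys of mice with a disease-causing transgene under a promoter active in heart muscle. A conjugating enzyme (E2) carries ubiquitin, a ligase (E3) passes it to the chosen protein, and a deubiquitinating enzyme removes it. Cullin ligases are built from parts, in which an F-box or other adaptor protein picks the target. HECT ligases bind ubiquitin themselves, while most RING and tripartite motif (Trim) ligases bring the E2 to the target. In the kidney this system is known for setting how many sodium channels and transporters stay in the tubule membrane, through Nedd4l and through Cul3.

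Members were chosen by symbol: those starting with Ube2, Ube3, Ube4, Usp plus a digit (Usp2 excepted), Otud, Rnf, Fbxo, Fbxl, Fbxw or Trim, together with Wwp1, Wwp2, Nedd4, Nedd4l, Itch and the cullins Cul1 to Cul5. The symbols matched 154 of the 7373 listed genes, and 149 were kept after dropping genes at 0 in control 3. By role they were 27 Ube2 conjugating enzymes, 6 HECT ligases, 2 Ube4 ligases, 45 Rnf genes, 14 Trim genes, 4 cullins, 29 F-box genes, 20 Usp genes and 2 Otud genes. A symbol is not proof of the role: Ube2m and Ube2f conjugate NEDD8, a relative of ubiquitin.

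The transgenic group was 3 kidney samples from males of the inbred strain FVB/N, adult and overexpressing CryAB with the R120G missense mutation under the α-myosin heavy chain promoter, sampled before heart failure. The control group was 3 kidney samples of FVB/N males of matched age. The promoter is active in cardiomyocytes, so the transgene is not aimed at the kidney, and whole kidneys were halved and frozen, so each library mixes all kidney cell types. Nothing in the labels ties a sample to its own animal, and the spread behind each p-value may therefore be technical. Where kidneys are counted or numbered below, the unit is the library.

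The median estimated count per gene was between 1205 and 1654 in the transgenic libraries and between 1424 and 2362 in the control libraries. Markers of proximal tubule, thick ascending limb, distal convoluted tubule, collecting duct and podocyte were present in every library, and none of 6 cardiac and skeletal muscle markers was among the listed genes. Cryab, the gene that the transgene carries in mutant form, stood at 186.5, 178 and 194 CPM (estimated counts scaled to the library's total) in transgenic kidneys and at 210, 223 and 292 CPM in controls without overlap. The log2 fold change was -0.38 ± 0.13 (SE), and -0.22 without control 3, with an adjusted p of 0.997 in edgeR. Control 3 stood apart from the other 5 libraries. It was the highest or the lowest library for 67.4% of the 7194 genes tested. It also listed 178 genes at 0, among them all 177 listed genes placed on X or Y by gene ID. The cause of these zeros was not tested. The 5 genes dropped for being at 0 in control 3 are all on the X chromosome. In the other 5 libraries their levels ranged from 34.02 to 38.4 CPM for Cul4b, 42.7 to 51.1 for Ube2a, 78.2 to 93.4 for Rnf128, 89.7 to 100.6 for Otud5 and 111.4 to 120.4 for Usp9x.

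Levels are compared between genes as CPM per kilobase of exon, the mean over all 6 libraries. They ran from 2.53 for Rnf213, the giant RING protein gene, to 241 for Rnf181, a 95.2-fold range with a median of 14.3. The 10 highest members held 31.3% of the summed level. After Rnf181 came the RING genes Rnf187 (128) and Rnf5 (121), of which Rnf5 encodes a ligase of the endoplasmic reticulum, Trim7 (113), whose protein binds glycogenin, and Ube2m (92.9), which loads NEDD8 onto cullins. Rnf7, the RING partner of Cul5, stood at 78.2, Rnf10 at 77.0, and the conjugating enzymes Ube2d3, Ube2r2 and Ube2s at 66.4, 61.6 and 59.3. Medians by role lay close together, at 14.9 for Ube2, 15.6 for HECT, 14.4 for Rnf, 14.7 for Trim and 14.2 for both F-box and Usp genes, and were 19.7 for the 4 cullins and 8.31 for the 2 Otud genes.

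**Figure D1:**
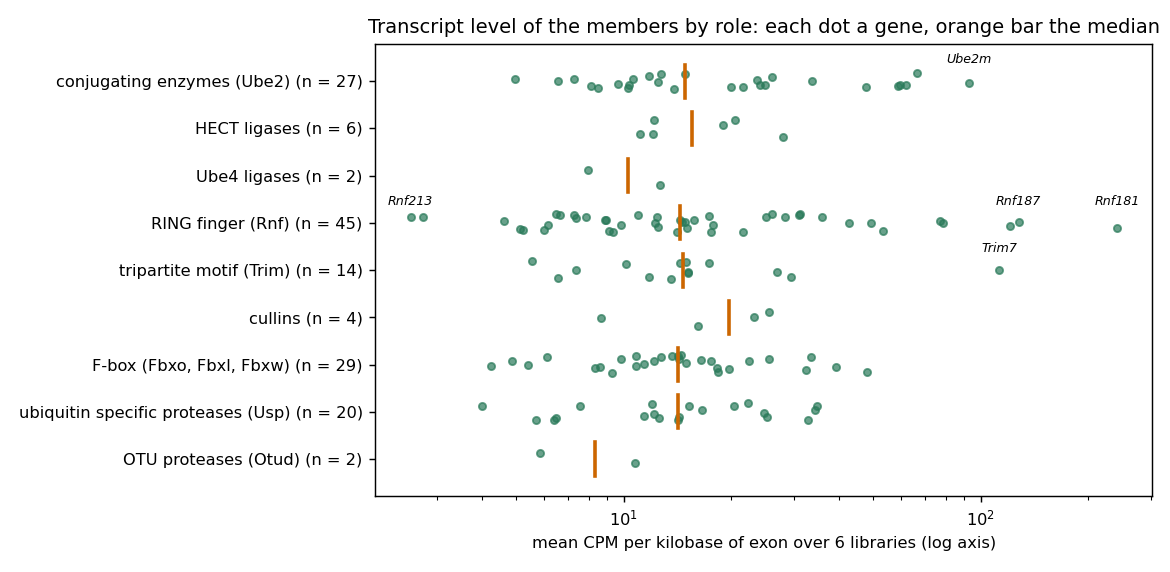
Mean level of each member in CPM per kilobase of exon (x axis, log scale) by role; each dot is a gene and the orange bar is the median. Rnf genes span the whole range from 2.53 (Rnf213) to 241 (Rnf181), and Trim7 at 113 is followed by Trim47 at 29.4.

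The comparison asked which of these transcripts differ between transgenic and control kidneys before heart failure. At a threshold of 0.05 on the adjusted p, edgeR's quasi-likelihood test called no member (smallest adjusted p 0.997), and 1 of all 7194 genes was called, or 0.0139%. That gene was Ren1, the renin gene, which is no member. At an unadjusted p under 0.05 there were 2 members, 1.34% of them, against 1.82% of all genes tested. Both were lower in transgenic kidneys, where the share of all genes was 1.08%, and 0 members were higher, against 0.737% of all genes. DESeq2, limma-voom with array weights and limma on the deposited log2 values called 0 members too, with 3, 7 and 3 at an unadjusted p under 0.05. These were 2.01%, 4.7% and 2.01% of members, against 2.27%, 8.81% and 1.86% of all genes. Fewer cells of a type and less RNA per cell cannot be told apart in these whole-kidney libraries.

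The member differences were small. The log2 fold changes ran from -0.43 (Rnf13) to 0.38 (Rnf24), with a median of -0.01 over the members and 0.00 over all genes. For 139 of 149 members (93.3%) the estimate was under 1.2-fold either way, as for 94.8% of all genes. The 95% interval lay within 1.5-fold either way for 131 members (87.9%), against 89.6% of all genes. For the remaining members a change of 1.5-fold lay inside the interval. The summed level of all members was 10242, 10277 and 10274 CPM in transgenic kidneys and 10345, 10606 and 10391 CPM in controls.

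The members with the smallest p-values were a HECT ligase gene and a conjugating enzyme gene. Wwp1 (gene ID 107568; chromosome 4, 19608296 to 19709004, mm10), a HECT ligase that recognises proline-rich motifs in its targets, was lower in all 3 transgenic kidneys. It stood at 70.1, 66.4 and 74.97 CPM in transgenic kidneys and at 82.8, 85.3 and 87.6 CPM in controls, so the groups did not overlap. The means were 70.5 ± 4.30 CPM in transgenic kidneys and 85.2 ± 2.397 CPM in controls (SD, n = 3 each), a log2 fold change of -0.27 ± 0.09 (SE; 95% interval -0.48 to -0.07). In edgeR its unadjusted p was 0.0161, and 0.997 once adjusted by Benjamini-Hochberg. Leaving out 1 library at a time kept the log2 fold change between -0.32 and -0.23, and at -0.25 without control 3. The unadjusted edgeR p was 0.0562 without transgenic kidney 1 and 0.0683 without transgenic kidney 2.

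Ube2e2 (gene ID 218793; chromosome 14, 18573563 to 18894284, mm10), of the Ube2e branch of conjugating enzymes, was low in all libraries. It stood at 10.5, 9.36 and 9.78 CPM in transgenic kidneys and at 12.4, 11.5 and 12.9 CPM in controls, without overlap. The log2 fold change was -0.31 ± 0.13 (SE; 95% interval -0.60 to -0.02), with an unadjusted p of 0.0386 and an adjusted p of 0.997 in edgeR. Without control 3 it was -0.27, and the unadjusted edgeR p was over 0.05 without each library except control 2 (0.0376). Its relatives Ube2e1 and Ube2e3 gave estimates of the same sign, at -0.42 and -0.27, but their groups overlapped and both were highest in control 3: without it they were -0.18 and -0.08.

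In 11 members (7.38%) the transgenic and control values did not overlap, against 5.98% of all genes tested. Of these 4 were higher in transgenic kidneys, where 2.96% of all genes were, and 7 were lower, where 3.02% of all genes were. An exact permutation test of 3 against 3 samples cannot go below p = 0.1, and none of the 11 passed the edgeR test (adjusted p = 0.997 for each).

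**Figure D2:**
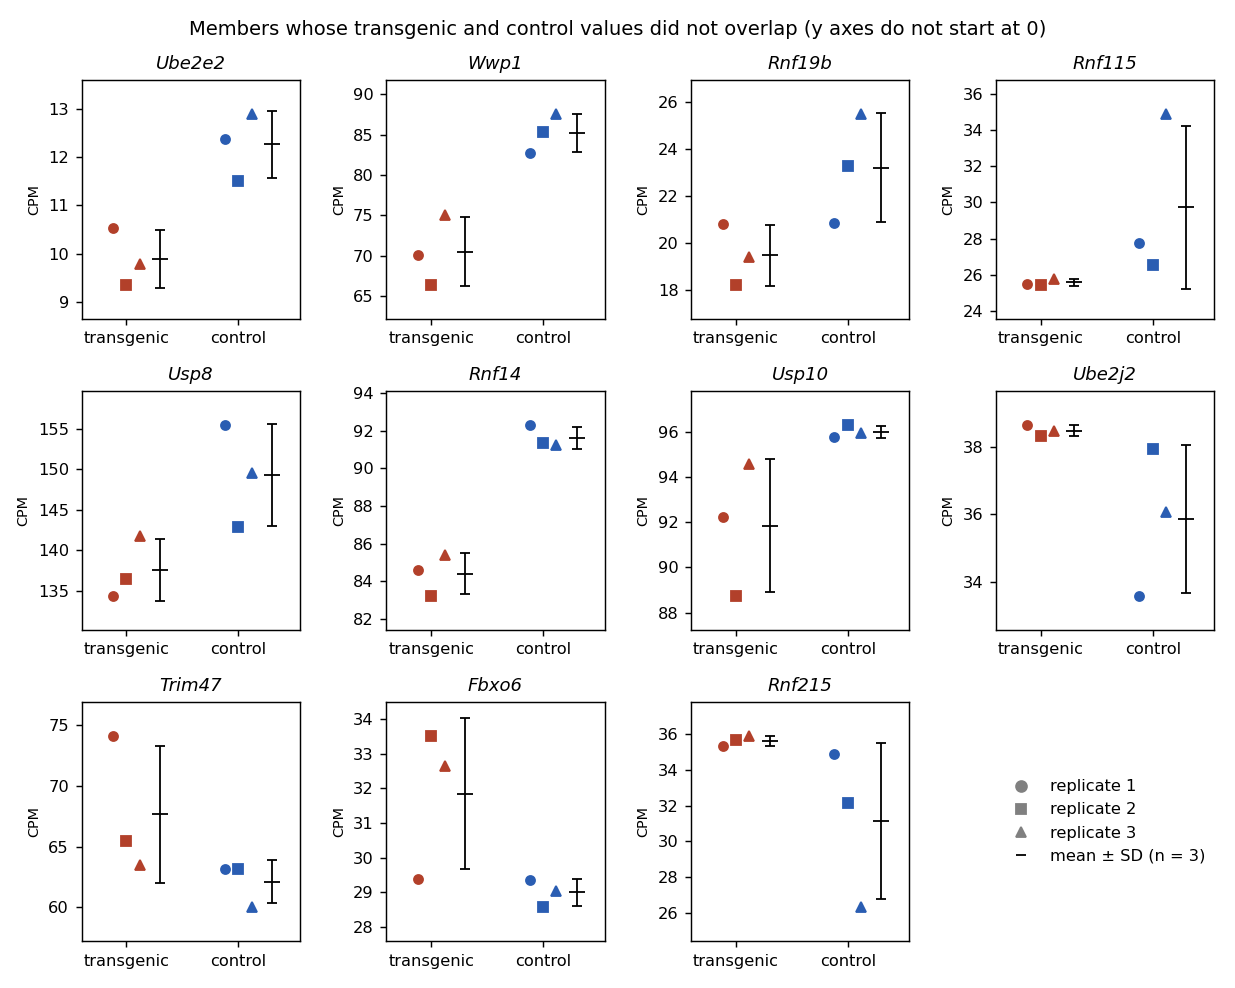
CPM (y axes, each on its own range and not from 0) of the 11 members whose groups did not overlap, transgenic left and control right; points are libraries, marked by replicate, and the bar is the mean with its SD (n = 3). For Wwp1 the nearest values are 74.97 CPM in transgenic and 82.8 CPM in control kidneys, while for Rnf19b and Fbxo6 they almost touch, and for Rnf115 and Rnf215 control 3 lies away from the rest.

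Besides Wwp1 and Ube2e2, the lower members were 3 RING genes and 2 proteases. Rnf14, a ligase known as a coactivator of the androgen receptor, was at 84.6, 83.2 and 85.4 CPM in transgenic kidneys and at 92.3, 91.3 and 91.2 CPM in controls. This was a small difference (log2 fold change -0.12 ± 0.08, SE) with a very narrow spread: the pooled within-group SD was 0.01 on the log2 scale, among the 3 smallest of all members. Leaving out any library kept its log2 fold change between -0.13 and -0.11. Usp8, a protease that acts on cargo of endosomes such as growth factor receptors, was at 134, 136 and 142 CPM in transgenic kidneys and at 155.5, 143 and 149.6 CPM in controls. Its log2 fold change was -0.12 ± 0.08 (SE), and -0.12 again without control 3. Usp10, which removes ubiquitin from p53 among other targets, was at 92.2, 88.75 and 94.6 CPM in transgenic kidneys and at 95.8, 96.3 and 95.95 CPM in controls (log2 fold change -0.06 ± 0.08, SE). The controls of Usp10 were nearly equal and the transgenic kidneys lay just under them.

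The other lower members depended more on control 3. Rnf19b was at 20.82, 18.2 and 19.4 CPM in transgenic kidneys and at 20.85, 23.3 and 25.5 CPM in controls, with a log2 fold change of -0.25 ± 0.12 (SE) and -0.18 without control 3. Rnf115 was at 25.49, 25.46 and 25.8 CPM in transgenic kidneys and at 27.8, 26.6 and 34.9 CPM in controls. Its 3 transgenic values were nearly equal and control 3 was far above the rest. The log2 fold change was -0.22 ± 0.12 (SE) with all libraries and -0.09 without control 3.

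The 4 members that were higher without overlap came from 4 different branches. Fbxo6, an F-box gene whose protein recognises sugar chains on misfolded glycoproteins, was at 29.38, 33.5 and 32.7 CPM in transgenic kidneys and at 29.35, 28.6 and 29.1 CPM in controls. Transgenic kidney 1 lay at the level of the controls, and the log2 fold change was 0.14 ± 0.09 (SE). Ube2j2, a conjugating enzyme of the endoplasmic reticulum membrane, was at 38.65, 38.3 and 38.5 CPM in transgenic kidneys and at 33.6, 37.95 and 36.1 CPM in controls. Its transgenic values were nearly equal and the controls spread below them (log2 fold change 0.10 ± 0.09, SE). Trim47 was at 74.1, 65.4 and 63.5 CPM in transgenic kidneys and at 63.2, 63.1 and 60.04 CPM in controls, so that transgenic kidney 1 made most of the difference. That gave a log2 fold change of 0.12 ± 0.09 (SE), and 0.05 without transgenic kidney 1. Rnf215 was at 35.35, 35.7 and 35.9 CPM in transgenic kidneys and at 34.9, 32.1 and 26.3 CPM in controls. Control 3 was the low value there: the log2 fold change was 0.20 ± 0.11 (SE) with it and 0.09 without it.

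Among the 27 conjugating enzymes, 17 had an estimate below 0 and 10 above 0, with a median log2 fold change of -0.06, and none passed the edgeR test. The summed level was 2015, 1994 and 2025 CPM in transgenic kidneys and 2043, 2032 and 2319 CPM in controls. Control 3 alone was high, being the highest of the 6 libraries in 15 of the 27 genes, and without it the median was -0.01. Ube2d3, which works with many RING ligases, shows this: it stood at 270, 280 and 296.5 CPM in transgenic kidneys and at 279, 283 and 453 CPM in controls. Its log2 fold change was -0.26 ± 0.18 (SE), and 0.01 without control 3. The rest of its branch differed less, Ube2d1 by 0.14 ± 0.11 (SE) and Ube2d2a by -0.06 ± 0.09 (SE). Reads of Ube2d2a, Ube2d3 and Rnf113a2 may be shared with near-identical copies, so their levels are uncertain.

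For the NEDD8 enzymes the estimates were close to 0. The log2 fold change of Ube2m was 0.00 ± 0.09 (SE; 95% interval -0.21 to 0.21). Ube2f, the NEDD8 enzyme that serves Cul5 with Rnf7, had the smallest spread of all members, at 40.3, 39.45 and 40.4 CPM in transgenic kidneys and 39.67, 39.69 and 39.9 CPM in controls. All 6 libraries were at the same level, and the log2 fold change was 0.01 ± 0.08 (SE). Ube2n, which builds chains used in signalling, differed by -0.11 ± 0.10 (SE) and Ube2r2, a partner of cullin ligases, by 0.00 ± 0.07 (SE). Ube2s, which extends chains for the anaphase-promoting complex, differed by 0.01 ± 0.10 (SE). Ube2u, a low transcript, was at 12.1, 11.4 and 10.8 CPM in transgenic kidneys and at 11.6, 9.35 and 19.5 CPM in controls. It was among the members with the largest spread, because of control 3, and its log2 fold change was -0.24 with that library and 0.13 without it.

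The HECT ligases did not move together. Beside Wwp1, 5 others were listed, with a median over all 6 of 0.00 and 3 estimates on either side of 0. Wwp2, the closest relative of Wwp1 by name, stood at 87.6, 91.2 and 89.03 CPM in transgenic kidneys and at 91.1, 91.0 and 78.6 CPM in controls. Its groups overlapped, its log2 fold change was 0.04 ± 0.10 (SE; 95% interval -0.18 to 0.26), and whether it differs from that of Wwp1 was not tested. Itch, known for its role in immune tolerance, differed by -0.10 ± 0.15 (SE), and by 0.07 without control 3. Nedd4, the founder of the family, stood at 190, 174 and 191 CPM in transgenic kidneys and at 194, 193 and 186 CPM in controls (log2 fold change -0.05 ± 0.08, SE). Nedd4l, whose protein marks the epithelial sodium channel for removal from the membrane, was at 120.5, 114 and 104 CPM in transgenic kidneys and at 109.9, 107 and 85.7 CPM in controls. Its groups overlapped and control 3 was the lowest library, with a log2 fold change of 0.16 ± 0.12 (SE) that was 0.05 without control 3. The chain-extending ligases Ube4a and Ube4b differed by 0.08 ± 0.12 and 0.11 ± 0.13 (SE), and Ube4b by -0.01 without control 3.

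The cullins, scaffolds of the largest ligase family, gave 3 estimates below 0 and 1 above 0. Cul3, which with the adaptor Klhl3 controls the WNK kinases of the distal tubule, was at 108, 107 and 120.0 CPM in transgenic kidneys and at 112, 121 and 156 CPM in controls. The groups overlapped and control 3 was the highest, so the log2 fold change was -0.22 ± 0.13 (SE) with all libraries and -0.07 without control 3. Cul1, the scaffold of F-box ligases, differed by -0.04 ± 0.09 (SE), Cul2 by -0.15 ± 0.12 (SE) and Cul4a by 0.02 ± 0.10 (SE). Rnf7 differed by -0.06 ± 0.12 (SE), and by 0.08 without control 3.

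The 29 F-box genes had a median log2 fold change of -0.03, with 13 estimates above 0 and 16 below 0 between -0.24 (Fbxl5) and 0.14 (Fbxo42). Without control 3 the median was -0.04, with 10 estimates above 0 and 19 below 0. Fbxw11, which targets β-catenin and IκB, differed by -0.10 ± 0.09 (SE). None of the F-box genes had an unadjusted p under 0.05 in edgeR. Fbxo32, Fbxl21 and Fbxw7 are outside the listed genes, as is Trim63, and were not analysed here.

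Of the 14 Trim genes 12 had an estimate above 0 and 2 (Trim32 and Trim44) below 0, with a median log2 fold change of 0.09, and none passed the edgeR test. The summed level was 1049, 1075 and 977 CPM in transgenic kidneys and 1021, 1105 and 829 CPM in controls. Control 3 was again the library apart, in the direction opposite to the conjugating enzymes, as the lowest of the 6 in 10 of the 14 genes. Without it 8 estimates were above 0 and 6 below 0, and the median was 0.00. Trim7 stood at 335, 380 and 294 CPM in transgenic kidneys and at 356, 385 and 236 CPM in controls, with a log2 fold change of 0.05 ± 0.18 (SE) and -0.14 without control 3. Trim28, a co-repressor of transcription with zinc finger proteins, stood at 94.4, 89.3 and 90.7 CPM in transgenic kidneys and at 84.7, 93.2 and 71.75 CPM in controls. Its groups overlapped, and its log2 fold change was 0.14 ± 0.11 (SE) with control 3 and 0.04 without it.

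**Figure D3:**
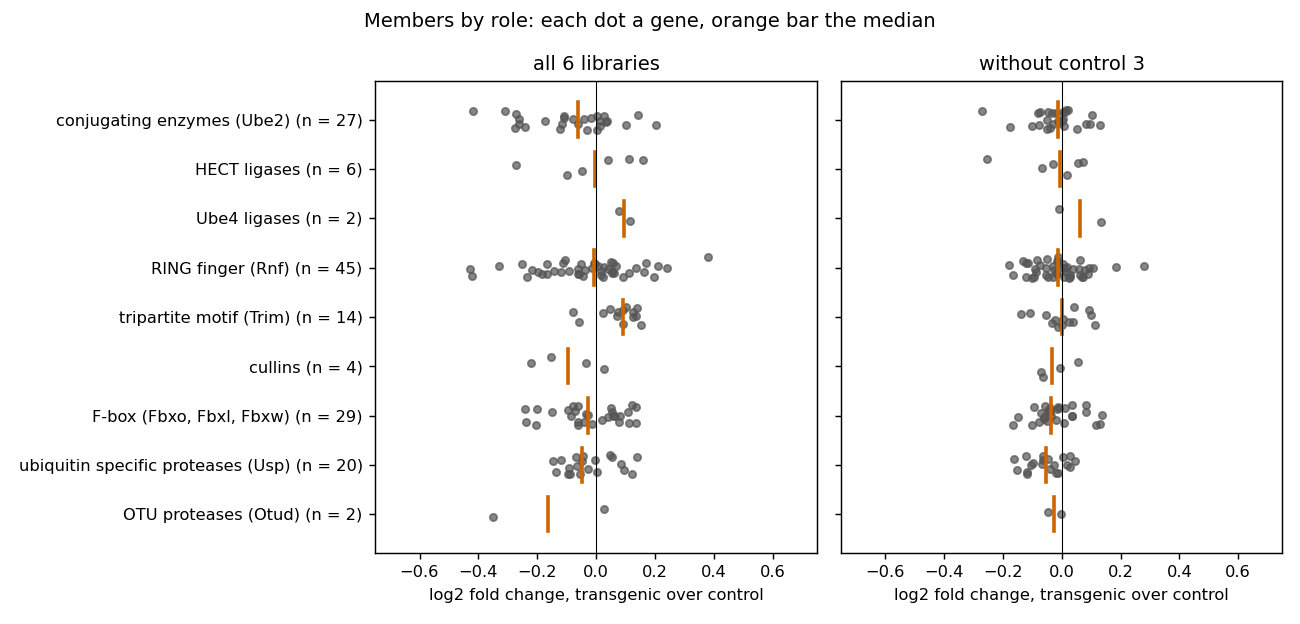
Log2 fold change of transgenic over control (x axis) for every member by role, with all 6 libraries (left) and without control 3 (right); each dot is a gene and the orange bar is the median. The Trim median is 0.09 with control 3 and 0.00 without it, the Ube2 median -0.06 with it and -0.01 without it.

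**Figure D4:**
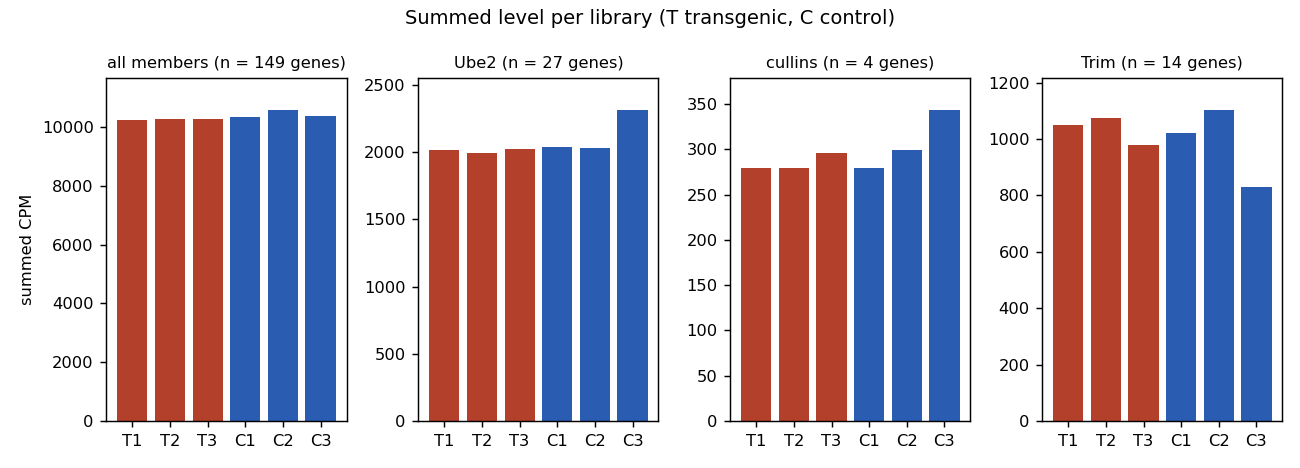
Summed CPM (y axis, from 0) of all members and of the Ube2, cullin and Trim genes in each library, transgenic in red and control in blue. The sum over all members is level across libraries, while control 3 is the highest for Ube2 (2319) and cullins (344) and the lowest for Trim (829).

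The largest estimates among Rnf genes came from genes with a wide spread. Rnf13, a ligase of endosome and lysosome membranes, was at 67.6, 79.35 and 77.4 CPM in transgenic kidneys and at 79.7, 75.6 and 146.5 CPM in controls. Control 3 was far above every other library, and the log2 fold change was -0.43 ± 0.24 (SE) with it and -0.05 without it. Rnft1 was at 25.45, 25.9 and 31.55 CPM in transgenic kidneys and at 32.7, 26.3 and 52.0 CPM in controls, with a log2 fold change of -0.42 ± 0.23 (SE), and -0.09 without control 3. Rnf24 had the largest spread of all members, at 77.3, 152 and 77.5 CPM in transgenic kidneys and at 81.1, 110.6 and 44.35 CPM in controls. Transgenic kidney 2 was high and control 3 low, so that the log2 fold change of 0.38 ± 0.36 (SE) was -0.02 without transgenic kidney 2 and 0.09 without control 3. Rnf123 was at 83.1, 95.7 and 87.5 CPM in transgenic kidneys and at 93.2, 105.6 and 56.6 CPM in controls, with a log2 fold change of 0.06 ± 0.20 (SE) that was -0.16 without control 3. The abundant genes Rnf181, Rnf187, Rnf5 and Rnf10 differed by 0.05 ± 0.09, 0.00 ± 0.09, 0.02 ± 0.09 and -0.05 ± 0.10 (SE) on the log2 scale. Over all 45 Rnf genes 21 estimates were above 0 and 24 below 0, with a median of -0.01.

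The 20 Usp proteases had 13 estimates below 0 and 7 above 0, between -0.15 (Usp3) and 0.14 (Usp21), with a median log2 fold change of -0.05. Unlike those of the Ube2 and Trim genes, this median was no closer to 0 without control 3, at -0.05, with 15 estimates below 0. The medians of the F-box genes (-0.028 with control 3, -0.036 without it) and Rnf genes (-0.007 and -0.013) were no closer to 0 either. Whether the Usp median differs from the median of other genes was not tested. Usp7, which acts on Mdm2 and p53, stood at 106.7, 109.7 and 117 CPM in transgenic kidneys and at 107, 117.0 and 97.1 CPM in controls (log2 fold change 0.05 ± 0.10, SE). Usp14, bound to the proteasome, differed by -0.05 ± 0.10 (SE). Usp30, of the outer mitochondrial membrane, differed by -0.05 ± 0.13 (SE). Usp36, a nucleolar protease, was at 40.7, 37.2 and 36.6 CPM in transgenic kidneys and at 37.7, 44.3 and 23.5 CPM in controls. Control 3 was again the low value, with a log2 fold change of 0.12 ± 0.20 (SE) that was -0.10 without it. Of the 2 Otud genes, Otud6b differed by -0.35 ± 0.21 (SE), and -0.05 without control 3, and Otud7b by 0.03 ± 0.08 (SE).

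Over all members, control 3 was the most frequent extreme. It lay outside the range of the other 5 libraries in 113 of 149 members, or 75.8%, against 67.4% of all genes. It was above them in 57 members, where 34.8% of all genes were, and below them in 56, where 32.6% of all genes were. The other libraries lay outside the range in 14.1% to 38.3% of members, and the highest of these was control 2. On a principal component analysis of the members' log2 CPM the first component held 73.5% of the variance, with control 3 at 3.64 and the other libraries between -1.34 and -0.14. Over all genes it held 53.5%, with control 3 at 23.7 and the other libraries between -10.8 and 1.03. The members' median within-group SD on the log2 scale was 0.08 in transgenic kidneys and 0.16 in controls, against 0.09 and 0.15 over all genes. Leaving out control 3 changed the sign of the estimate in 56 of the 149 members, a count that was not made over all genes. In 78 members the estimates with 1 library left out at a time did not all have the same sign. Many estimates were near 0: 84 members (56.4%) were under 0.1 either way on the log2 scale, against 62.3% of all genes.

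Other readings of control 3 moved with this. It was the deepest library, with 47.6 M estimated counts against 23.5 to 34.9 M in the others. Summed markers of the proximal tubule (Lrp2 and Slc34a1) stood at 8173 CPM in control 3 and between 8517 and 9424 in the other 5 libraries, though Lrp2 alone, at 1479 CPM in control 3, was within the range of the others. Those of the thick ascending limb (Slc12a1 and Umod) stood at 3142 CPM in control 3 and between 2545 and 2860 elsewhere, though Slc12a1 alone was lowest in control 3. Their part in the result was not tested. Markers of fat cells (3 of 5 listed, with Adipoq and Plin1 outside the listed genes) summed to 109 to 166 CPM in transgenic kidneys and 89.6 to 294 CPM in controls. Control 2 was the highest in the sum and for each of Cfd, Car3 and Fabp4. The range of single genes was wider than that of the sum for Cfd, at 28.7, 6.87 and 18.4 CPM in transgenic kidneys and 0.22, 77.2 and 0.04 CPM in controls. Markers of red blood cells (3 of 5 listed) summed to 499 to 757 CPM in transgenic kidneys and 532 to 925 CPM in controls. Among them Hba-a2 stood at 1.05, 2.06 and 1.24 CPM in transgenic kidneys and at 14.2, 12.7 and 0.26 CPM in controls. Its log2 fold change was -2.64 ± 1.03 (SE), and -3.2 without control 3, where edgeR called it. Hba-a1 and Hbb-bs differed by -0.23 ± 0.30 and -0.32 ± 0.13 (SE). Markers of leukocytes (4 of 5 listed) summed to 166 to 219 CPM in transgenic kidneys and 191 to 232 CPM in controls, and all 3 sums overlapped between the groups. In 2 further lists the single listed marker did not overlap. Psca, of the urothelium, was at 7.86, 12.3 and 16.9 CPM in transgenic kidneys and at 17.6, 18.7 and 27.2 CPM in controls, with Krt5, Upk1b and Upk3a outside the listed genes. Akr1b7, of the adrenal list, was at 6.88, 7.79 and 6.47 CPM in transgenic kidneys and at 4.49, 5.67 and 5.44 CPM in controls, with Cyp11b1 and Star outside the listed genes. Both were low, and their part in the differences of Wwp1, Ube2e2 and the other members without overlap was not tested.

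**Figure D5:**
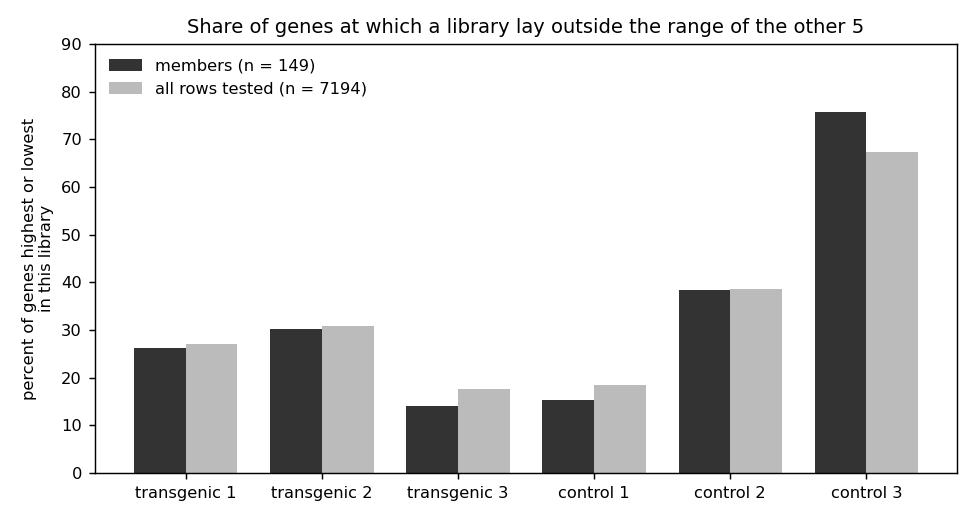
Percent of genes (y axis) for which each library was the highest or the lowest of the 6, for the 149 members (dark) and all 7194 genes tested (light). Control 3 reaches 75.8% of members and 67.4% of all genes, and no other library is above 38.6%.

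Of 139 symbols listed for the rest of the pathway, 91 were tested, 5 were at 0 in control 3 and 43 symbols, older and newer names of the same gene among them, matched no listed gene. None of the 91 passed the edgeR test in either direction, 1 had an unadjusted p under 0.05 (1.099%, against 1.82% of all genes), and 4 did not overlap between groups (4.4%, against 5.98% of all genes). Of these 3 were higher and 1 lower in transgenic kidneys. The smallest p was that of Mdm4, the partner of Mdm2 in restraining p53, at 31.2, 26.7 and 27.8 CPM in transgenic kidneys and at 22.3, 25.7 and 18.5 CPM in controls, without overlap. Its log2 fold change was 0.37 ± 0.14 (SE), with an adjusted p of 0.997 in edgeR, and 0.25 without control 3. The polyubiquitin gene Ubb was also higher without overlap, at 668, 624 and 656 CPM in transgenic kidneys and at 605, 492 and 593 CPM in controls (log2 fold change 0.20 ± 0.10, SE). Of the 8 cullin adaptor genes tested, 7 had an estimate below 0 and 1 above 0, with a median log2 fold change of -0.10. Of all 7194 genes tested, 3574 were below 0. The gene above 0 was Tceb2, an elongin subunit, at 0.18 ± 0.09 (SE) with overlapping groups, while its partner Tceb1 was at -0.09 ± 0.12 (SE). Control 3 was the highest library in 5 of the 8 (62.5%, against 34.8% of all genes). Without it Ddb1, Skp1a, Tceb1 and Vhl were at 0.06, 0.00, 0.01 and 0.04. Keap1, Klhl2 and Spop were then at -0.12, -0.03 and -0.04, and Tceb2 at 0.13.

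Cops2, a subunit of the COP9 signalosome that strips NEDD8 from cullins, was lower without overlap, at 58.2, 63.95 and 62.75 CPM in transgenic kidneys and at 66.4, 66.9 and 89.99 CPM in controls. Its log2 fold change was -0.27 ± 0.13 (SE), and -0.11 without control 3. The activating enzyme subunit genes Uba3, for NEDD8, and Uba2, for SUMO, differed by -0.25 ± 0.13 and -0.22 ± 0.12 (SE), and by -0.08 and -0.09 without control 3. Uchl1, a deubiquitinating enzyme gene at a low level here, differed by -0.29 ± 0.15 (SE), and by -0.33 without control 3.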

How the data were processed

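The authors deposited 1 table of 7373 genes with 24 columns of per-sample values. The 12 columns whose names match these samples, all labelled Pre_IRI, were used and the other 12 were not. The list was cut, per the file headers, to genes with an NRPKM between 5.0 and 84233.281 in 2 or more of 6 samples. Per the submitters' processing notes the build was mm10. For aligner, counter and strand, the step is not given in the sources used here, so a gene and an antisense partner cannot be told apart. The deposited raw columns hold estimated counts, which were rounded. The deposited normalized columns hold log2 values, used for 1 alternative.

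The 178 genes at 0 in control 3 were left out of the fit, since the rule drops them, and filterByExpr removed 1 more. Of the genes at 0, 177 lie on X or Y by gene ID, which is every listed gene placed there. Groups were compared in R 4.3.3 with edgeR (version 4.0.16), by its quasi-likelihood test, with TMM and group as the only term, adjusted by Benjamini-Hochberg over all 7194 genes, two-sided, at 0.05. The prior degrees of freedom were 4.44, and 2.4 with all genes. The 6 libraries held between 23.5 (transgenic 2) and 47.6 (control 3) M estimated counts. Standard errors are the log2 fold change over the square root of F. CPM use TMM library sizes. Exon lengths are exon unions of GENCODE vM21 basic and positions are RefSeq GRCm38.p6. All 149 members matched both. The fit was also run on simulated counts, drawn independently for each gene and library. No simulated library was made to stand apart as control 3 does, and no result here rests on that run. Alternatives used DESeq2 (version 1.42.0) and limma (version 3.58.1).

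The members, lists and tests were chosen with earlier results of these data known. Named members were up to 12 per direction without overlap between groups, the 10 highest per kilobase, the 6 with the largest and 3 with the smallest spread, and a list of ligases, conjugating enzymes and proteases. Members at the ends of a range, Ube2e1, Ube2e3, Ube2d2a, Rnf113a2, Trim28, Trim32, Trim44, Otud6b and Otud7b were named after their values were seen. So were, of the other pathway genes, Tceb1, Ddb1, Skp1a, Vhl, Keap1, Klhl2 and Spop. Replicate numbers come from the sample titles. Results of some listed genes are not reported here.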

Additional observations from a re-analysis of the deposited data

How the results depend on the processing

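The number of members called was 0 under all 16 alternatives, a threshold of 0.1 on the adjusted p among them, as was the number of other pathway genes called. The number of all genes called, 1 in the main edgeR test, was 2 with DESeq2, 0 with the genes at 0 in control 3 included, 0 with limma on the deposited log2 values and 0 to 2 without 1 library. The smallest adjusted p of any member was 0.431, for Wwp1 with limma-voom and array weights. Its log2 fold change lay between -0.32 and -0.23 under the alternatives and its adjusted p between 0.431 and 0.9999. Members at an unadjusted p under 0.05 numbered 2 in the main test, 0 without transgenic kidney 1 (0.653% of all genes), 1 without transgenic kidney 2 (1.6%), 3 without transgenic kidney 3 (1.64%), 4 without control 1 (1.39%), 15 without control 2 (8.3%) and 1 without control 3 (2.31%). The members' shares were 0%, 0.671%, 2.01%, 2.68%, 10.1% and 0.671% in the same order. Members without overlap numbered 11 with all libraries, 12 with DESeq2 or its size factors, and 15 to 42 without 1 library, where overlap is rarer because fewer values are compared. Of all genes 24.6% did not overlap without control 2, and 10.1% to 16.3% without each other library. The median log2 fold change of the members stayed between -0.04 and -0.01. Of 690 values of the 46 named members under the alternatives, 47 had the opposite sign to the main value, none of them called, and 5 differed by more than the within-group SD, all with limma-voom and array weights. With the replicate number as a block, 0 members were called and 5 had an unadjusted p under 0.05, or 3.36% against 2.45% of all genes. The deviations of same-numbered samples correlated at 0.0047, 0.019 and 0.34 over all genes and at -0.021, 0.283 and 0.439 over the members, for numbers 1, 2 and 3. Since not every pair was over 0.1, the numbers were not taken as pairs, and 1 of 3 transgenic samples correlated best with its own number. Estimated counts carry no interval of their own, and genes low in most kidneys are not among those listed.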
